A study of Mus musculus with 6 samples.

Results

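The MHC class I antigen presentation genes were examined in mouse early LPre-B (early large pre-B) cells, the bone marrow stage at which V segments of the immunoglobulin heavy chain locus are joined. The 10 genes were taken by symbol, from the Entrez ID of each row, and all 10 had a row among the 13426 genes of the deposited table. They were B2m, H2-K1, H2-D1, Tap1, Tap2, Tapbp, Psmb8, Psmb9, Psmb10 and Nlrc5. Cells were sorted from 2 groups of adult mice with 3 RNA sequencing libraries each. Upf1-cKO (cKO) mice were Upf1 Flox/Flox, Mb1 Cre/+ and control (Ctrl) mice were Upf1 Flox/Flox, Mb1 +/+, so both groups carry floxed Upf1 and no agent was given. Cre is expressed from the Cd79a (Mb1) locus, which acts in the B lineage and loses an intact copy to the insertion. Since Ctrl mice carry no Cre, its presence and the loss of Upf1 cannot be told apart in this design.

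UPF1 is an RNA helicase best known for nonsense-mediated mRNA decay. MHC class I molecules show short peptides from the inside of a cell to T cells. The peptides are cut by proteasomes, in which the immunosubunits encoded by Psmb8, Psmb9 and Psmb10 can replace the constitutive subunits encoded by Psmb5, Psmb6 and Psmb7. The transporter formed by TAP1 and TAP2 moves them into the endoplasmic reticulum, where tapasin (Tapbp) holds the heavy chain (H2-K1, H2-D1 and related genes) and its light chain, beta-2-microglobulin (B2m), beside the transporter until a peptide is bound. NLRC5 is a transactivator of class I genes, and many genes of the pathway are known to respond to interferons.

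In the libraries labelled cKO, 5 of the 10 genes were higher, 1 was lower and 4 did not pass the test. Both classical heavy chains, both transporter subunits and tapasin rose by 1.23 to 1.48-fold, B2m and Psmb8 were within 0.02 of no change on the log2 scale, and Psmb10 fell by 0.24. Values are the authors' signal per gene and library, called normalised reads here, which are reads scaled to an effective library size. A gene was called when its limma adjusted p over all 13426 genes was below 0.05. By that rule 27.7% of all genes were higher and 25.0% were lower, which is the background for the counts of 5 and 1 of 10. The median log2 fold change was 0.26 over the 10 genes and 0.01 over all genes, and the single genes lay between the 30.8 and 81.5 percentile of all fold changes.

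Sequences upstream of a RefSeq start of the light chain and of a heavy chain are shown first, because the light chain and the heavy chains moved differently. They were copied from RefSeq windows of build GRCm38.p6, which held 8 of the 10 genes (Tap2 and Nlrc5 had no window). The windows were searched on both strands for an interferon-stimulated response element (ISRE) core, GAAANNGAA, a gamma-activated site (GAS), TTCNNNGAA, an NF-kB-like site, GGGNNTTCC, and a CCAAT box, CCAAT. A further ISRE spelling, GAANNGAAA, was added after the sequences had been read. In the lines that follow, capitals mark matches to these letters and every sequence is given 5′ to 3′ on the strand of the gene. The B2m line covers chr2:122147437-122147685 (plus strand) and the H2-K1 line chr17:34000348-34000597 (minus strand), each ending at or next to the RefSeq start used. H2-K1 has 2 such starts, and the first listed was taken. Its line lies inside the span that RefSeq gives the gene, which reaches 34000619, and holds no exon base of the GENCODE M21 basic set.
B2m: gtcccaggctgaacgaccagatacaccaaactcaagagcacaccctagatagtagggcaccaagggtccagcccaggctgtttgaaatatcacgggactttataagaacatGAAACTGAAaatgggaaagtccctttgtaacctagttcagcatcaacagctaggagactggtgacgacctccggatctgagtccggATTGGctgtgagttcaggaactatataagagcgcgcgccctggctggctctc
H2-K1: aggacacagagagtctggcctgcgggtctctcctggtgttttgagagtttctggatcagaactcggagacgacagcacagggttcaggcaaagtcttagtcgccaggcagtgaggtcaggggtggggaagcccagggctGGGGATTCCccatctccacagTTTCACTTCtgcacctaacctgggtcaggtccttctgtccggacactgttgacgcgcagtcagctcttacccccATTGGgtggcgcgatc

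The B2m stretch holds 1 match to the first ISRE spelling and a CCAAT box on the opposite strand. The H2-K1 stretch holds the NF-kB-like letters, 1 match to the added ISRE spelling on the opposite strand and a CCAAT box on the opposite strand. Among the 8 genes with a window, the first ISRE spelling was found in 1 (B2m), the GAS letters in 1 (Psmb8), the NF-kB-like letters in 2 (H2-K1 and H2-D1), the CCAAT letters in 6 and the added spelling in 2 (H2-K1 and H2-D1). Over all 32851 windows of the same length, 8.56% held the first ISRE spelling, 8.30% the GAS letters, 5.82% the NF-kB-like letters, 37.4% the CCAAT letters and 7.52% the added spelling. Such a match describes the letters only. The NF-kB-like letters have a fixed spacing, and no longer spelling of them was searched. The B2m line holds gggaaagtccc shortly after its ISRE match, which these letters cannot match on either strand. Whether that stretch is an NF-kB site was not tested, so the missing match does not show that B2m differs from the heavy chains here. The NF-kB-like match was shared with other heavy chain genes on chromosome 17, and 30 bases around it are given to show how alike these genes are, with the match in capitals.
H2-K1: gcccagggctGGGGATTCCccatctccaca
H2-D1: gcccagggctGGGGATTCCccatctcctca
H2-Q6: gcccatggctGGGGATTCCccatctcccca
H2-Q7: gcccatggctGGGGATTCCcatctccccag
H2-Q4: atcaggggtgGGGATTTCCcatctccccag

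Compared base by base without gaps, the H2-D1 stretch (chr17:35262913-35262942) equalled that of H2-K1 (chr17:34000439-34000468) at 29 of 30 positions. The figure was 28 for H2-Q6 (chr17:35424667-35424696), 21 for H2-Q7 (chr17:35439012-35439041) and 14 for H2-Q4 (chr17:35379434-35379463). The H2-D1 and H2-Q4 stretches lie wholly in exons of that set and the others in none. The match began 111 bases before the start used for H2-K1 and 171 bases before that of H2-D1. Class I heavy chain genes are also near-identical in parts of their transcripts, so reads may be split between them, and the values of each single heavy chain gene are uncertain to that extent.

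Most of the genes lie together. On chromosome 17 of GRCm38 the annotation places Tapbp at 33919478 to 33929290, H2-K1 at 33996012 to 34000619, Psmb9 at 34182030 to 34187330, Tap1 at 34187556 to 34197225, Psmb8 at 34198195 to 34201454, Tap2 at 34204479 to 34216321 and H2-D1 at 35263094 to 35267497. Psmb9 and Tap1 are divergent neighbours with 225 bases between them, Tap1 and Psmb8 are 969 bases apart, and Psmb8 and Tap2 are 3024 bases apart. B2m lies on chromosome 2 (122147687 to 122153082), and Psmb10 (105935728 to 105938392) and Nlrc5 (94434335 to 94527272) lie on chromosome 8. Each value covers the exons of the whole gene. Reads were counted without strand, and B2m overlaps Patl2, Tapbp overlaps Gm19412 and Nlrc5 overlaps 3 annotated genes, so these 3 values can hold reads of a neighbour.

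Facts of the libraries bear on every value. Whole reads recovered from the signal totalled 9732498 to 11006834 per library, which gave the 10 genes between 418 and 8954 reads each in every library. Upf1 itself (Entrez ID 19704, chromosome 8, 70331493 to 70353423) was not lower in the libraries labelled cKO, with 241 ± 32.3 (SD, n = 3) normalised reads in Ctrl and 297 ± 12.7 (SD, n = 3) in cKO, a log2 fold change of 0.31 (SE 0.089, limma adjusted p = 0.00696). That row sums the whole gene and overlaps Gdf1 and Cers1, so it does not check the deleted exons, and the group is called by its label throughout. Cd79a, where Cre is inserted, was lower, at 234, 215 and 213 in Ctrl and 71.6, 75.2 and 73.0 in cKO, and was named after its values were seen. All 12 markers of early LPre-B cells were in the table, with a summed level of 2658 to 2933 in Ctrl and 3113 to 3331 in cKO, but they moved both ways (5 higher, 2 lower, log2 fold changes from -1.58 to 1.64). Neutrophil markers (8 of 8 in the table, 5 higher) summed to 119, 18.2 and 14.3 in Ctrl libraries 1, 2 and 3 and to 460, 351 and 328 in cKO libraries 1, 2 and 3. Summed levels of dendritic cell markers (5 of 8 in the table) were 5.71 to 8.45 in Ctrl and 33.9 to 37.8 in cKO, those of T or NK cells (2 of 9) 1.17 to 1.59 and 3.79 to 5.27, and those of monocytes or macrophages (6 of 7) 63.0 to 98.1 and 83.9 to 112. Most of the dendritic sum in cKO was 1 gene, Flt3, named here after its values were seen, which went from 2.03 ± 0.495 to 29.8 ± 1.07 and which early progenitors also express. Erythroid markers (3 of 7) summed to 6.82 to 11.8 and 8.39 to 9.42, and markers of mature B or plasma cells (8 of 8) to 282 to 295 and 97.6 to 118. No marker in the table was at 0 in all libraries. The T or NK sum moved mostly through Klrb1c, also named after its values were seen, at 0.595 ± 0.229 and 3.20 ± 0.580. The other gene of that sum, Nkg7, was not called and overlapped between the groups. The neutrophil, dendritic, T or NK and early LPre-B sums were higher and the mature B or plasma cell sum was lower in every cKO library, while the monocyte or macrophage and erythroid sums overlapped between the groups. The part of the sums that moved in the class I results was not tested. In bulk RNA, more cells of a type and more RNA per cell cannot be told apart.

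The classical heavy chains bind the peptide and carry the part seen by the T cell receptor. H2-K1 (Entrez ID 14972) was at 469, 545 and 473 normalised reads in Ctrl libraries 1, 2 and 3 and at 738, 711 and 755 in cKO libraries 1, 2 and 3. Every cKO library was above every Ctrl library. Its mean went from 496 ± 42.5 to 735 ± 22.3 (SD, n = 3 each), a log2 fold change of 0.57 (SE 0.074, limma adjusted p = 3.54e-06). H2-D1 (Entrez ID 14964) was at 318, 381 and 405 in Ctrl and at 489, 511 and 519 in cKO. Here too the groups were apart, and the mean went from 368 ± 44.8 to 506 ± 15.8, a log2 fold change of 0.47 (SE 0.083, limma adjusted p = 0.000122). Ctrl library 1, which had the highest neutrophil marker sum of its group, had the lowest value of both heavy chains among the Ctrl libraries, for H2-K1 by 469 against 473 in Ctrl library 3. It also had the highest Ctrl values of Tap1 (174), Tap2 (56.5) and Nlrc5 (184). Without that library the log2 fold changes were 0.53 for H2-K1 and 0.37 for H2-D1, and both were called (limma adjusted p = 2.9e-06 and 0.000115).

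B2m, the light chain that every classical heavy chain needs to reach the surface, was at 237, 247 and 221 normalised reads in Ctrl and at 232, 234 and 232 in cKO (Entrez ID 12010). All cKO values fell inside the Ctrl range. The log2 fold change was -0.01, with a 95% interval of -0.17 to 0.14 (limma adjusted p = 0.882). A rise as large as that of H2-K1 or H2-D1 lay outside this interval. The sum of H2-K1 and H2-D1 relative to B2m, a ratio within a library that does not depend on how libraries were scaled, was 3.32, 3.74 and 3.97 in Ctrl and 5.29, 5.23 and 5.49 in cKO. Its log2 difference was 0.54, with every cKO library above every Ctrl library. The exact two-sided permutation test gave p = 0.1, adjusted p = 0.125 over the 5 ratios tested, and 0.1 is the smallest p that 3 libraries against 3 allow, so no ratio could pass the threshold.

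**Figure D1:**
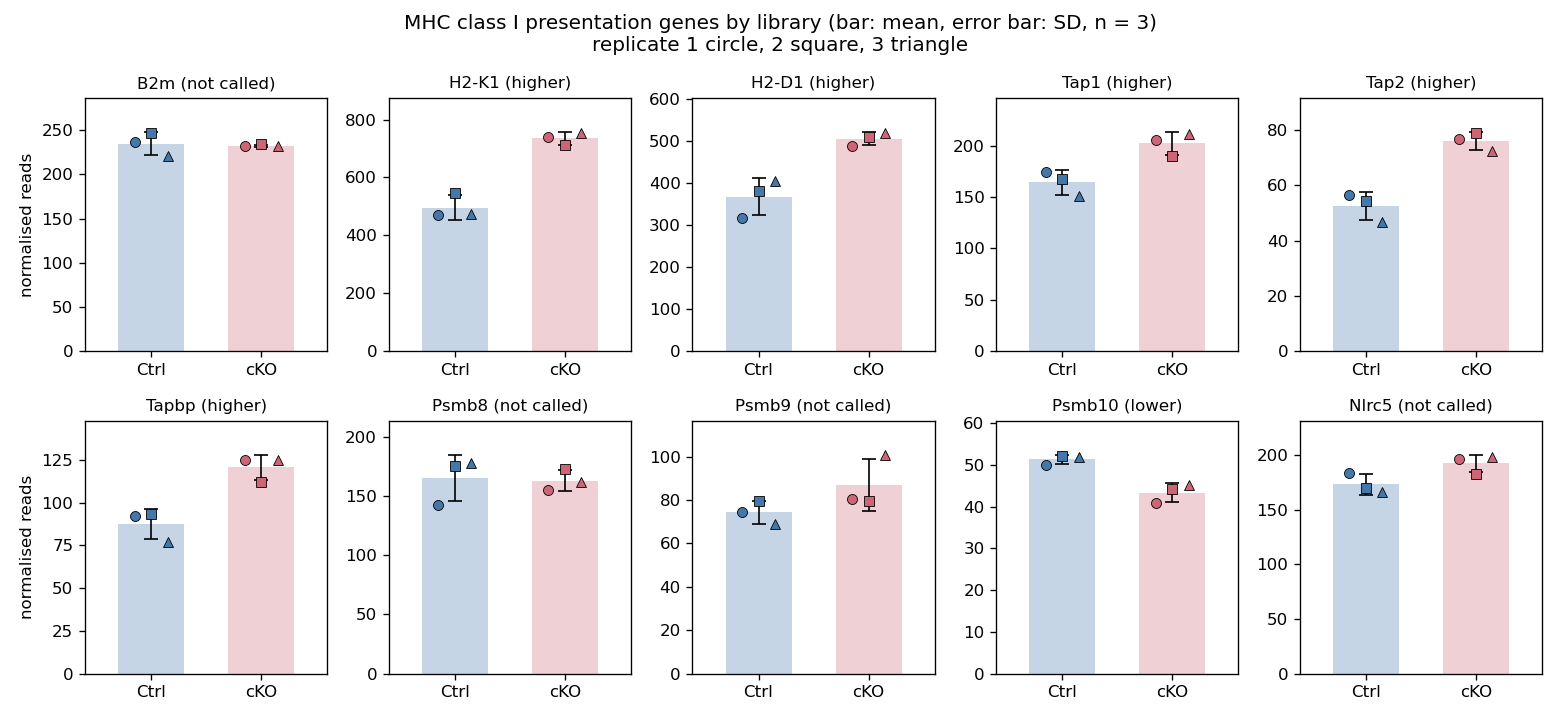
Normalised reads (vertical axis, from 0, one scale per gene) of the 10 MHC class I presentation genes in Ctrl and cKO libraries, with a point per library, bars for means and error bars for SD (n = 3); the word beside each gene is its call at a limma adjusted p of 0.05. H2-K1 moved from a mean of 496 to 735 and Tap2 from 52.5 to 76.1 without overlap of the groups, whereas the B2m groups shared a mean near 235 and 233.

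The transporter subunits and tapasin were all higher. TAP1 and TAP2 form the peptide channel as a pair. Tap1 (Entrez ID 21354) was at 174, 168 and 151 normalised reads in Ctrl and at 206, 190 and 211 in cKO, with a log2 fold change of 0.30 (SE 0.079, limma adjusted p = 0.00374). Tap2 (Entrez ID 21355) was at 56.5, 54.2 and 46.9 in Ctrl and at 76.8, 78.9 and 72.5 in cKO, with a log2 fold change of 0.53 (SE 0.093, limma adjusted p = 9.96e-05). Neither gene showed overlap between the groups. The ratio of Tap1 to Tap2 was 3.08, 3.09 and 3.23 in Ctrl and 2.68, 2.41 and 2.92 in cKO, a log2 difference of -0.24 (exact permutation p = 0.1, adjusted p = 0.125), and no cKO library reached the Ctrl range. Tapbp (Entrez ID 21356), the bridge between transporter and heavy chain, was at 92.0, 93.1 and 77.1 in Ctrl and at 125, 112 and 125 in cKO. Its groups were apart, with a log2 fold change of 0.46 (SE 0.090, limma adjusted p = 0.000279).

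The immunoproteasome subunits did not move together. Psmb8 (Entrez ID 16913), the immune counterpart of Psmb5, was at 143, 176 and 178 normalised reads in Ctrl and at 155, 173 and 162 in cKO, and the groups overlapped. Its log2 fold change was -0.02, with a 95% interval of -0.20 to 0.17 (limma adjusted p = 0.881). Psmb9 (Entrez ID 16912), the counterpart of Psmb6 and the divergent neighbour of Tap1, was at 74.4, 79.7 and 69.0 in Ctrl and at 80.6, 79.7 and 101 in cKO. Only cKO library 3 stood clearly apart, and cKO library 2 lay above Ctrl library 2 by less than the printed precision. The log2 fold change of 0.22 (95% interval 0.01 to 0.43) missed the threshold with a limma adjusted p of 0.0699. It was 0.11 without cKO library 3, and 0.27 without Ctrl library 2, where it was called (limma adjusted p = 0.0469).

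Psmb10 (Entrez ID 19171), the counterpart of Psmb7, was at 50.1, 52.2 and 51.8 normalised reads in Ctrl and at 40.8, 44.2 and 45.1 in cKO. Every cKO library lay below every Ctrl library. Its log2 fold change was -0.24 (SE 0.092, limma adjusted p = 0.0355), which made it the only one of the 10 genes called lower. The call was lost, at a log2 fold change of -0.20 to -0.27, when any 1 library other than Ctrl library 1 was left out, so it is not firm. Scaled to total reads instead, the log2 fold change was -0.04.

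Nlrc5 (Entrez ID 434341) was at 184, 170 and 166 normalised reads in Ctrl and at 196, 183 and 198 in cKO. The groups overlapped, since cKO library 2 lay below Ctrl library 1. The log2 fold change was 0.15, with a 95% interval of -0.01 to 0.31 (limma adjusted p = 0.102). It was 0.19 and called when Ctrl library 1 was left out (limma adjusted p = 0.0336). Counted over all 10 genes without any test, 6 had every cKO library above every Ctrl library, beside 30.9% of all genes. In 1 gene every cKO library lay below, beside 28.0% of all genes, and in 3 the groups overlapped.

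Spread within a group was small for all 10 genes. The coefficient of variation ran from 2.17% (Psmb10) to 12.2% (H2-D1) in Ctrl and from 0.434% (B2m) to 13.7% (Psmb9) in cKO. Divided by exon length, H2-K1 was the most abundant of the members and their proteasome counterparts, with 299 ± 25.7 normalised reads per kb in Ctrl and 444 ± 13.5 in cKO. B2m followed at 273 ± 15.4 and 270 ± 1.17 and H2-D1 at 175 ± 21.3 and 241 ± 7.53. In Ctrl the H2-K1 and B2m levels per kb overlapped between libraries, and in cKO they did not. Psmb8 was next among the 10 at 102 ± 12.1 and 100 ± 5.62, then Tap1 at 55.6 ± 3.91 and 68.5 ± 3.74 and Psmb9 at 55.0 ± 3.96 and 64.4 ± 8.85, and these last 2 overlapped in both groups. Psmb10 (39.2 ± 0.849 and 33.1 ± 1.71), Tapbp (30.2 ± 3.09 and 41.6 ± 2.58), Nlrc5 (21.3 ± 1.12 and 23.7 ± 1.05) and Tap2 (15.3 ± 1.45 and 22.1 ± 0.947) were lower, and Psmb10 and Tapbp changed places between the groups. Tap2 had the lowest mean of the 10 per kb in both groups, but in cKO its libraries (21.1 to 22.9) overlapped those of Nlrc5 (22.5 to 24.4).

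Whether an immune subunit moved against its constitutive counterpart was asked with ratios. The constitutive genes were lower or not called. Psmb5 was at 28.7 ± 5.25 normalised reads in Ctrl and 21.1 ± 2.26 in cKO (log2 fold change -0.42, SE 0.137, limma adjusted p = 0.0159), and Psmb7 was at 168 ± 15.4 and 132 ± 5.79 (log2 fold change -0.34, SE 0.083, limma adjusted p = 0.00207). Psmb6 was at 105 ± 14.4 and 96.0 ± 1.85 (log2 fold change -0.12, limma adjusted p = 0.293). The ratio of Psmb8 to Psmb5 was 6.31, 5.44 and 5.75 in Ctrl and 7.98, 8.54 and 6.85 in cKO, and that of Psmb9 to Psmb6 was 0.74, 0.66 and 0.74 in Ctrl and 0.83, 0.85 and 1.04 in cKO. Both ratios were higher in every cKO library than in every Ctrl library, with log2 differences of 0.41 and 0.34 (exact permutation p = 0.1, adjusted p = 0.125 for each). The ratio of Psmb10 to Psmb7 was 0.33, 0.29 and 0.30 in Ctrl and 0.32, 0.32 and 0.34 in cKO, with overlapping groups and a log2 difference of 0.10 (exact permutation p = 0.3, adjusted p = 0.3). Neither immune subunit of the 2 higher ratios was itself called higher.

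**Figure D2:**
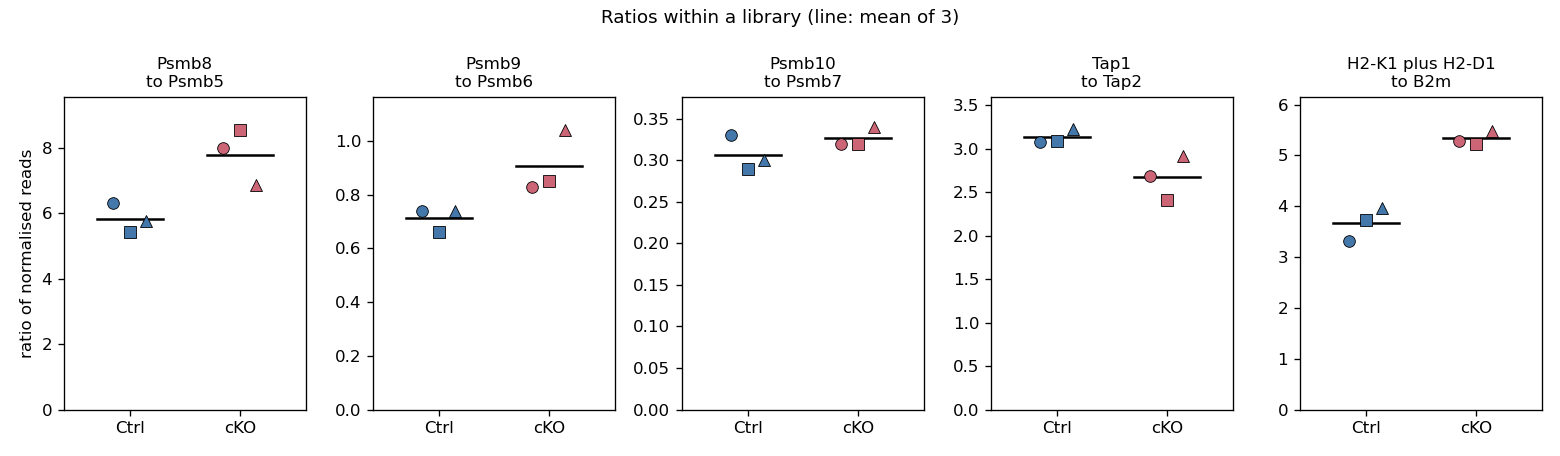
Ratios of normalised reads within a library (vertical axes, from 0) for 5 pairs of genes in Ctrl and cKO, with a point per library (circle, square and triangle for replicates 1, 2 and 3) and a line at the mean. H2-K1 plus H2-D1 to B2m lay between 3.32 and 3.97 in Ctrl and between 5.23 and 5.49 in cKO, and only the ratio of Psmb10 to Psmb7 overlapped between the groups.

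Of the proteasome counterparts and activators, 8 of 9 listed genes were in the table, of which 5 were lower, 1 was higher and 2 were not called, with a median log2 fold change of -0.38, where 25.0% of all genes were lower and 27.7% higher. The largest falls were of Psme4 (-0.55, limma adjusted p = 3.13e-05) and Psme3 (-0.52, limma adjusted p = 6.79e-05), which encode proteasome activators, and of Pomp (-0.51, limma adjusted p = 0.000256), which encodes the proteasome maturation protein. Psme1 was the gene called higher. It encodes a subunit of the interferon-inducible activator PA28 and went from 116 ± 10.7 to 151 ± 1.26 normalised reads (log2 fold change 0.37, limma adjusted p = 0.000824). Psme2, its partner subunit, was at 59.2 ± 8.37 and 57.0 ± 1.17 (log2 fold change -0.04, limma adjusted p = 0.735).

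Most of the other class I-like heavy chains were higher too. Of 30 listed genes 14 were in the table, 12 were higher, none was lower and 2 were not called (H2-T22 and Cd1d1), with a median log2 fold change of 0.91, beside 27.7% of all genes higher. The count takes in low genes: H2-Q10, named after its values were seen, had 1, 0 and 1 reads in Ctrl and 9, 15 and 10 in cKO, so it could pass a filter on low values only through cKO, and its call supports nothing. With a minimum mean log2 value of 1 the count was 11, and with one of 3 it was 9. These filters used the mean over all 6 libraries, so they do not remove this limit. H2-K2 passed that of 3 only through its cKO values. Cd1d2, with 13, 4 and 11 reads in Ctrl, passed that of 1 in the same way. H2-Q6, a Qa-2 region gene, went from 33.6 ± 2.45 to 175 ± 5.36 normalised reads (log2 fold change 2.35, SE 0.086, limma adjusted p = 2.19e-13). H2-K2 was at 2.60, 0.758 and 1.64 in Ctrl and at 34.4, 33.8 and 42.9 in cKO (log2 fold change 3.89, SE 0.216, limma adjusted p = 1.77e-10), and H2-T10 went from 21.2 ± 2.66 to 102 ± 8.16 (log2 fold change 2.21, SE 0.106, limma adjusted p = 8.74e-12). Both are annotated as transcribed pseudogenes, as is Cd1d2, whose log2 fold change was 2.06 (limma adjusted p = 4.14e-07). H2-M3, which presents N-formylated peptides, went from 22.7 ± 2.72 to 56.8 ± 6.53 (log2 fold change 1.28, limma adjusted p = 3.76e-08). H2-T23, the Qa-1 heavy chain that is read by NK cell receptors, went from 45.4 ± 3.27 to 79.9 ± 4.35 (log2 fold change 0.81, limma adjusted p = 6.83e-07). Counted without strand, H2-T23 can hold reads of A930015D03Rik and H2-T10 those of BC023719, which they overlap. Several genes of the other lists also overlap a neighbour.

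**Figure D3:**
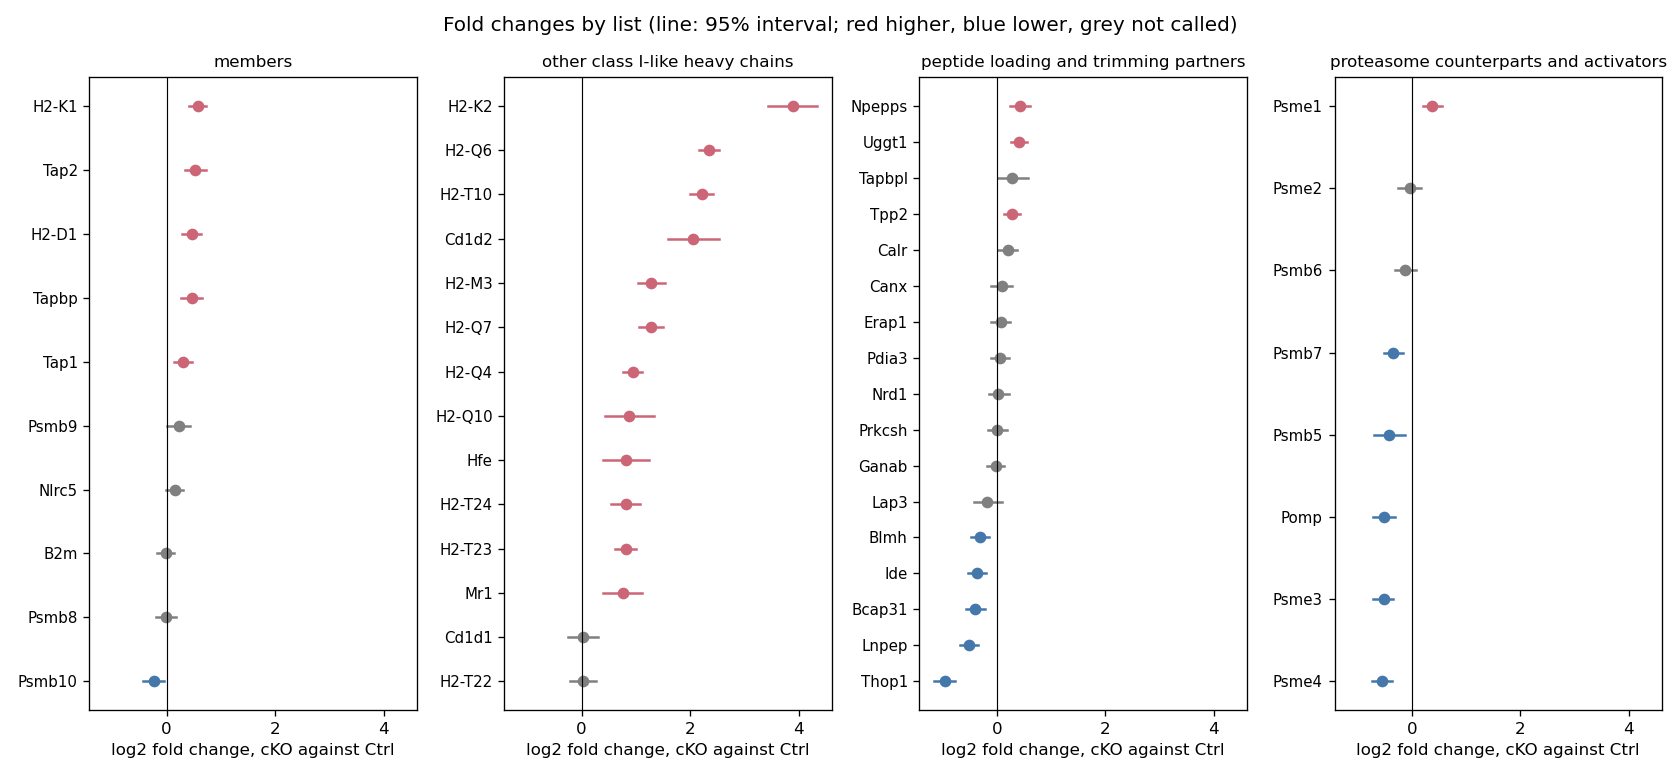
Log2 fold change, cKO against Ctrl (horizontal axis, same scale in all panels), with its 95% interval for the 10 genes and 3 companion lists; red marks genes called higher, blue genes called lower and grey genes not called at a limma adjusted p of 0.05. The 10 genes lay between -0.24 and 0.57, and the other heavy chains between 0.02 (H2-T22) and 3.89 (H2-K2). H2-K2 was low in Ctrl, at 2.60 normalised reads or less.

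The make-up of the heavy chain transcripts was described after these values had been seen. Levels per kb of H2-K1, H2-D1 and 10 other H2 heavy chain genes summed to 664 ± 39.0 in Ctrl and 1157 ± 32.6 in cKO, a 1.74-fold rise of the sum. The share of H2-K1 was 45.7%, 47.3% and 42.2% in Ctrl and 38.9%, 38.0% and 38.2% in cKO, and that of H2-D1 was 24.4%, 26.1% and 28.4% in Ctrl and 20.2%, 21.5% and 20.7% in cKO. Both shares were smaller in every cKO library, although both genes were higher. The 10 other genes went from 190 ± 8.01 to 472 ± 16.7 normalised reads per kb, 2.49-fold, and from a share of 28.6% to one of 40.8% (exact two-sided permutation p = 0.1, the smallest possible). Without H2-K2 and H2-T10 the difference in share was 8.9 percentage points in place of 12.2. Reads shared between near-identical heavy chain genes could move these shares.

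**Figure D4:**
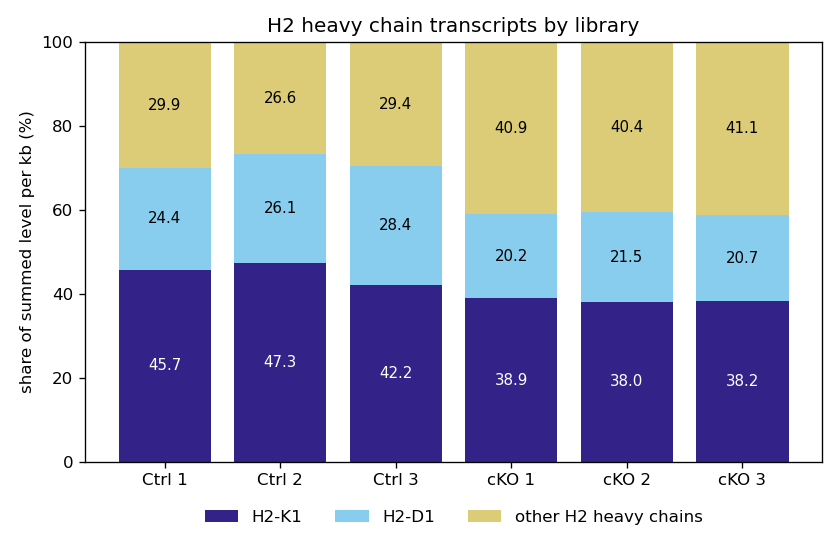
Share of the summed level per kb (vertical axis, percent) taken by H2-K1, H2-D1 and 10 other H2 heavy chain genes in each of the 6 libraries. The other genes took 26.6% to 29.9% in Ctrl and 40.4% to 41.1% in cKO.

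Partners that fold, load and trim class I molecules and their peptides were called in both directions. All 17 were in the table, of which 3 were higher, 5 were lower and 9 were not called, with a median log2 fold change of 0.03, where 27.7% of all genes were higher and 25.0% lower. The chaperones of the loading complex were not called: calreticulin (Calr) had a log2 fold change of 0.20 (limma adjusted p = 0.0612), calnexin (Canx) one of 0.09 (0.434) and the disulfide isomerase Pdia3 one of 0.06 (0.579). The peptide editor Tapbpl was at 0.29 (limma adjusted p = 0.0711) and the trimming peptidase Erap1 at 0.08 (limma adjusted p = 0.473). The largest changes were in peptidases and in a folding sensor. Thop1, which degrades peptides in the cytosol, fell from 80.2 ± 5.51 to 40.8 ± 1.34 normalised reads (log2 fold change -0.96, limma adjusted p = 6.36e-08). Lnpep fell by 0.51 on the log2 scale (limma adjusted p = 1.53e-05), Npepps rose by 0.43 (limma adjusted p = 0.000457), and Uggt1, which checks glycoprotein folding, rose by 0.42 (limma adjusted p = 6.88e-05).

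Of the transcriptional regulators of class I genes, 6 of 22 were higher, 8 were lower and 8 were not called (median log2 fold change -0.17). The share of 27.3% higher is near the 27.7% of all genes, so the count of rises is no result about the regulators, and 25.0% of all genes were lower. The 4 largest changes were in Irf7 (3.50 ± 0.861 to 11.3 ± 3.31 normalised reads, log2 fold change 1.43, limma adjusted p = 2e-05), Stat2 (46.3 ± 2.20 to 113 ± 7.27, 1.26, limma adjusted p = 1.22e-09), Ciita (30.5 ± 7.51 to 12.0 ± 0.286, -1.25, limma adjusted p = 1.16e-06) and Irf9 (27.5 ± 3.26 to 56.4 ± 6.85, 1.01, limma adjusted p = 6.62e-07). STAT2 and IRF9 form the factor that binds the ISRE after type I interferon, and CIITA is the class II counterpart of NLRC5. Irf1, an activator of class I genes, rose from 55.2 ± 3.02 to 88.7 ± 8.76 (log2 fold change 0.67, limma adjusted p = 6.91e-06). The other genes called lower, named after their values were seen, had log2 fold changes of -0.56 (Suz12), -0.52 (Eed), -0.44 (Atf1), -0.40 (Rela), -0.28 (Nfkb1), -0.23 (Irf3) and -0.21 (Nfya). Irf2 had a log2 fold change of -0.18 (limma adjusted p = 0.0558). Of the RFX subunits on which NLRC5 acts, Rfx5 rose by 0.47 on the log2 scale (limma adjusted p = 0.000982), while Rfxank was at 0.22 (limma adjusted p = 0.285) and Rfxap at -0.01 (limma adjusted p = 0.948).

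Among the interferon receptors, their kinases and feedback genes, 7 of 10 were higher, 1 was lower and 2 were not called, with a median log2 fold change of 0.46, beside 27.7% higher and 25.0% lower over all genes. Socs3, a feedback inhibitor, went from 1.08 to 4.78 normalised reads on average (log2 fold change 1.48), and the receptor chain Ifngr2 from 21.7 ± 4.75 to 55.6 ± 4.30 (log2 fold change 1.34, limma adjusted p = 1.14e-07). Jak2 rose by 0.86 (limma adjusted p = 1.71e-07) and Ifnar1 by 0.69 (limma adjusted p = 3.14e-06) on the log2 scale. The one gene called lower was Jak1, with a log2 fold change of -0.39 (limma adjusted p = 0.000271).

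The fold changes depended on how the libraries were scaled. Scaled to total reads, all genes together had a median of 0.19 on the log2 scale, and 8 of the 10 genes were called higher, beside 5169 of all 13426 genes in place of 3725. With medians set equal across libraries by centring, the median of all genes was -0.10 and 5 were higher and 1 lower. H2-K1, H2-D1, Tap1, Tap2 and Tapbp were called higher under all 18 alternatives run, with log2 fold changes of 0.46 to 0.79, 0.36 to 0.67, 0.19 to 0.50, 0.42 to 0.73 and 0.35 to 0.66. Psmb10 was called lower under 11, and Psmb9 and Nlrc5 were called higher under 3 each. B2m was called higher under 1, total reads scaling, and Psmb8 under none.

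**Figure D5:**
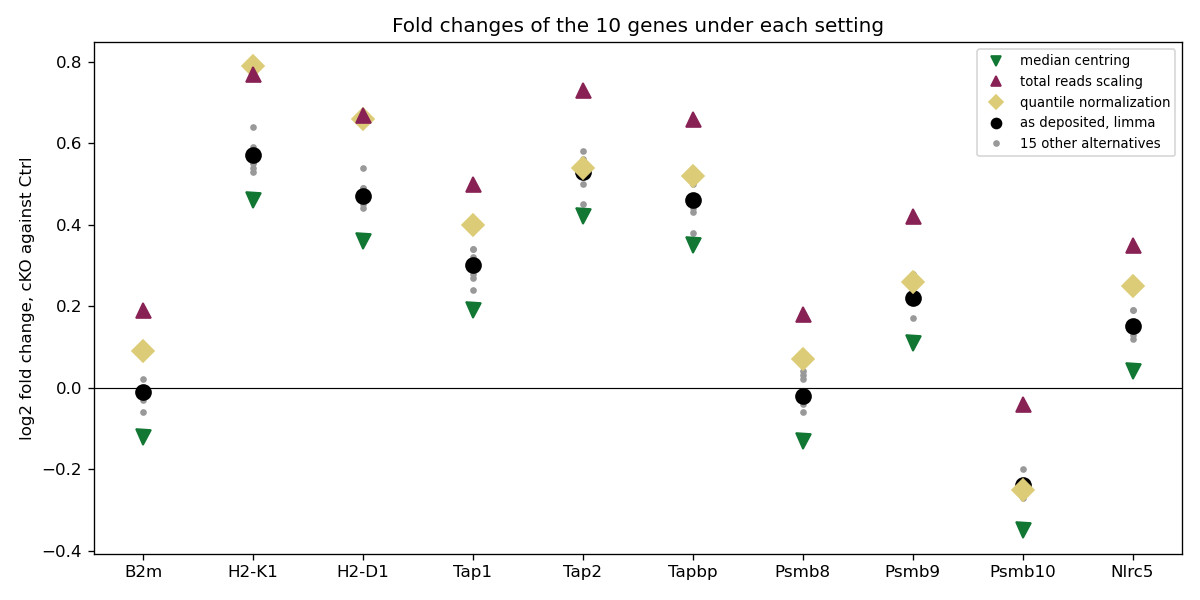
Log2 fold change, cKO against Ctrl (vertical axis), of the 10 genes under limma on the values as deposited and under 18 alternatives, each a point, with the 3 other scalings marked by shape. Total reads scaling lifted B2m from -0.01 to 0.19, while H2-K1 stayed between 0.46 and 0.79.

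The mean profile of the 10 genes over the 6 libraries was compared with all other genes of at least 10 normalised reads on average. Of 8536 genes the most alike were Tyw5 (Pearson r = 0.999), Rbm43 (0.997), Itga5 (0.997), Abr (0.996) and Hax1 (0.996), which is a description over 6 libraries in 2 groups that share library and depth. Against the same mean profile, of which each is a part, H2-K1 had an r of 0.99, Tapbp of 0.96, Tap1 of 0.93 and Tap2 of 0.92. B2m (0.09), Psmb8 (-0.04) and Psmb10 (-0.84) did not follow it.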

How the data were processed

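RNA from sorted early LPre-B cells was sequenced in 3 Ctrl and 3 cKO libraries, grouped by their labels. Per the methods and the labels, ribosomal RNA was depleted, single-end reads were trimmed with cutadapt 4.0, aligned to mm10 with HISAT2, counted per gene without strand with featureCounts 2.0.1 and normalised with limma 3.48.0. The handling of reads that match several genes is not given in the sources used here. The deposited signal is linear, and its values show that the authors added 0.5 to the reads and divided by an effective library size. Whole reads were recovered for 100% of values (tolerance 0.01 reads) and totalled 9732498 to 11006834 per library. No library repeated another of its group (chi-square over genes, 4.39 to 22.02 per degree of freedom).

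RefSeq (GRCm38.p6) named 13008 of 13426 rows. Exon lengths came from GENCODE M21. limma 3.58.1 (R 4.3.3) was run on log2(value + 1), which understates the change of low genes, with an intensity trend, robust eBayes and no term but group, adjusted over all genes by Benjamini-Hochberg, and was tested on simulated data. The design had set this transform for a table of linear values. Ratios were tested by an exact two-sided permutation test over 20 assignments. Replicates are biological per the study's methods, and the number of animals per library is not given in the sources used here. On the recovered reads, DESeq2 1.42.0 and edgeR 4.0.16 served as alternatives, beside a replicate block, voom, eBayes without trend, other scalings, filters and pseudocounts, and each library left out.

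The members and lists were chosen with earlier results of these data known. Named genes were Upf1, the members, the ratio genes, at most 4 genes per companion list with the largest change among those called, further genes fixed by name, and the 5 genes of most similar profile. Not every gene named by this rule is reported here. Sequences of proteins were not used here.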

Additional observations from a re-analysis of the deposited data

How the results depend on the processing

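The counts that moved by over 1.5 times did so mostly with scaling. Scaled to total reads, 8 members were higher and 0 lower, 5169 of all 13426 genes were higher in place of 3725 and 1936 lower in place of 3351, 10 loading and trimming partners were higher and 2 lower, 3 proteasome genes were lower, 4 regulators were lower, and 0 interferon receptors and kinases were lower. Higher calls made up 52.6% of all calls as deposited, 72.8% after total reads scaling and 40.7% after median centring (2992 higher, 4355 lower). Quantile normalization gave 5 loading and trimming partners higher. Without the intensity trend 0 members and 5 regulators were lower. The cause was not tested. Members lower ranged from 0 to 1 when a library was left out. B2m reversed to 0.09 (quantile) and 0.19 (total reads, adjusted p = 0.045), and lay between -0.06 and 0.02 when a library was left out. Psmb8 reversed to 0.07 (quantile) and 0.18 (total reads), and lay between -0.12 and 0.04 when a library was left out. The difference in the share of other H2 heavy chains was 8.9 percentage points without the annotated pseudogenes, an alternative chosen after the values were seen. The 5 ratios kept their direction under every alternative run.

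The replicate numbers did not pair the libraries: same-numbered deviations correlated at 0.126, -0.063 and -0.079. With the replicate block 5 members were higher and 1 lower, and of all genes 3668 were higher and 3321 lower. Each member had 418 or more reads per library, and the SE of its log2 fold change was 0.073 to 0.099, and a log2 fold change of 0.22 (Psmb9) was not called.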
